A study of Mus musculus with 2 samples.

Results

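The genes described are 10 chemokine ligands, namely Ccl1, Ccl2, Ccl6, Ccl8, Ccl9, Ccl17, Ccl22, Cxcl2, Cxcl10 and Xcl1, taken by their symbols from the platform annotation. Each was read by 1 probe with that symbol alone, so they are 10 of 4331 named genes and 10 of 8014 probes. Total RNA of splenic CD4+ alpha beta T cells was compared between wildtype mice and LatY136F mice on 2 arrays, each carrying both RNAs in its 2 colour channels. LatY136F exchanges a tyrosine for phenylalanine at residue 136 of Lat, the adaptor that links the T cell receptor to phospholipase C and its downstream pathways, and mice with this allele are known for an expansion of T helper 2 (Th2) cells. In both groups the cells were taken from spleen with magnetic beads against CD4 and a cell sorter. The labels name no treatment for either group, and they give no age, sex, strain, number of mice or number of copies of the allele.

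On array 1 channel 1 was the wildtype sample and channel 2 the LatY136F sample, and on array 2 the channels were exchanged. The labels name no separate extracts, so the arrays were counted as 1 biological comparison and no test of the genotypes was made. All values below are log2 ratios of LatY136F over wildtype, with array 2 turned to the direction of array 1, and ± stands for 0.5 times the gap between the arrays, a measure that may reflect technical error alone and shows no spread between mice. The direction is likely and not certain: the table does not state which channel is the numerator, and channel 2 over channel 1 was assumed, under which the Th2 genes Gata3 and Il13 were higher in LatY136F cells. If the other reading holds, every "higher" below becomes "lower". The call of a gene as higher or lower required it to be at least 2-fold apart (a log2 ratio of 1 or more, or -1 or less) in 1 direction on both arrays.

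Chemokines are small secreted proteins that steer leukocytes along gradients through receptors coupled to inhibitory G proteins. They are sorted by the spacing of their first cysteines into CC, CXC, XC and CX3C families. Most inflammatory CC ligands lie in gene clusters, draw monocytes, eosinophils and activated T cells, and are made by macrophages, dendritic cells, stromal cells and, for some ligands, T cells. Ccl17 and Ccl22 are known as products of dendritic cells and macrophages, and Ccl1 and Xcl1 as products of activated T cells. A ratio from a sorted population cannot tell more cells of a kind from more RNA per cell.

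Of the 10 ligands, 5 were called higher in LatY136F cells (Ccl8, Ccl6, Cxcl2, Ccl1 and Ccl9) and none was called lower. Over all 4331 genes, 4.20% were called higher and 0.970% lower. At 4-fold on both arrays, 2 of the 10 remained (Ccl8 and Ccl6), against 1.02% of all genes. The ligands were chosen with results of these arrays known, so the excess over the background is no independent evidence. The same sign on both arrays was found for 7 of the 10, against 55.8% of all genes, and the other 3 (Ccl2, Ccl22 and Cxcl10) changed sign between the arrays. The median of the 10 means was 0.78, against 0.00 over all genes. It falls in the gap between Ccl9 (1.36) and Ccl17 (0.19), and no ligand lay near it. On single arrays that median was 1.24 (array 1) and 1.02 (array 2), where Ccl22 (array 1) or Ccl2 (array 2) came next below the called genes.

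**Figure D1:**
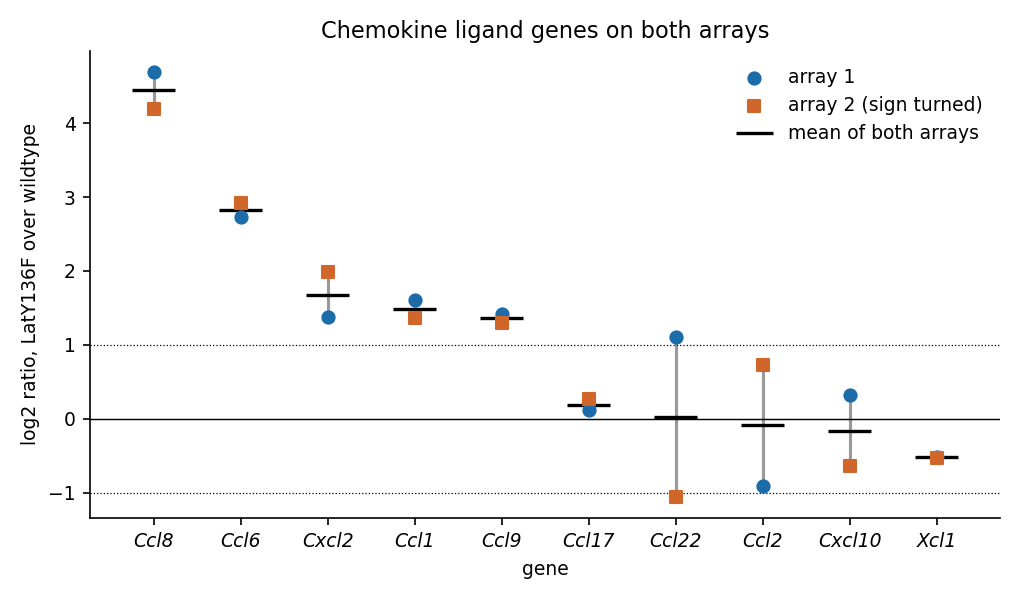
Log2 ratio of LatY136F over wildtype (y axis) for each of the 10 ligands (x axis), with array 1 as circles, array 2 after turning its sign as squares, and the mean of both as a bar; dotted lines mark 2-fold. Ccl8, Ccl6, Cxcl2, Ccl1 and Ccl9 lie above the upper line on both arrays, and Ccl22, Ccl2 and Cxcl10 span 0.

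The 5 called ligands lie in gene clusters, as do Ccl2, Cxcl10, Ccl17 and Ccl22, which were not called. The sequence just before the start site is shown for the 5 called genes and, for contrast, for Cxcl10. The windows hold the 250 bases before the start site in the RefSeq annotation of GRCm38.p6, written 5′ to 3′ on the gene's own strand. Capitals mark matches on either strand to the NF-kappaB consensus, to GAAANNGAAA (the core of the interferon-stimulated response element, where N is any base) and to TATAAA. The windows are chr11:82114935-82115184 (+) for Ccl8, chr11:83593088-83593337 (-) for Ccl6, chr11:83578637-83578886 (-) for Ccl9, chr11:82179813-82180062 (-) for Ccl1, chr5:90903649-90903898 (+) for Cxcl2 and chr5:92348890-92349139 (-) for Cxcl10.
Ccl8: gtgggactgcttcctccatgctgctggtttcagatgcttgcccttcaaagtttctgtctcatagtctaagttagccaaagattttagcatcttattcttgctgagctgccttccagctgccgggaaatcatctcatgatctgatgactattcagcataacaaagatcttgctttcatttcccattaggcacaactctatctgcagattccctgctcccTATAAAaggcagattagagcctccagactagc
Ccl6: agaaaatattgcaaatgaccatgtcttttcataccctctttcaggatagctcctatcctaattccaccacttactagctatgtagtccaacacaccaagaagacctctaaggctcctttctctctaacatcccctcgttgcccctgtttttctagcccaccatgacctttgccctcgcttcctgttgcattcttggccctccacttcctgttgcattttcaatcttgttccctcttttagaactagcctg
Ccl9: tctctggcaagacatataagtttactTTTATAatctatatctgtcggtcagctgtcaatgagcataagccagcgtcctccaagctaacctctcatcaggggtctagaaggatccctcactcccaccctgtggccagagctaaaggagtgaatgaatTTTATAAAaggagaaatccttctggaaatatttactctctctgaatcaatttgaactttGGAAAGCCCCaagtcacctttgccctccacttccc
Ccl1: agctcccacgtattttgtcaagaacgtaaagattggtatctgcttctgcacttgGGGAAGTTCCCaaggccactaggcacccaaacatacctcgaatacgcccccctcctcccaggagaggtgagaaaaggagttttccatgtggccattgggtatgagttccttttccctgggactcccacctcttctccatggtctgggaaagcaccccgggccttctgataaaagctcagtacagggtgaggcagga
Cxcl2: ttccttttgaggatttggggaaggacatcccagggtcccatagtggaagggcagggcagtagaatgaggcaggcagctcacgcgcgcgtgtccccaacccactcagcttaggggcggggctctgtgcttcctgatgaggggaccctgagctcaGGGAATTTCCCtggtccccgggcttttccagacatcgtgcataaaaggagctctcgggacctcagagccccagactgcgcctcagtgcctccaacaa
Cxcl10: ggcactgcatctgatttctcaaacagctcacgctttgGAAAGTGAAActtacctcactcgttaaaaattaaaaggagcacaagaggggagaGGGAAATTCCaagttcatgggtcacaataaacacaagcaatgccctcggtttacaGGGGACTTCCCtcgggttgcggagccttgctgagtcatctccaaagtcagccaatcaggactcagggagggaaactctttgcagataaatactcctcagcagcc

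RefSeq start-site windows were at hand for 9 of the 10 ligands (Ccl2 had none) and were searched with 50 bases after the start included, 300 in all, as were 32851 such windows of the genome. The NF-kappaB consensus stood in the windows of Ccl1, Ccl9 and Cxcl2 among the 5 called genes and of Cxcl10 among the 4 others. It stood in 4 of 21 genes with a window among the other ligands and Mif, and in 8.46% of all windows. The consensus was added to the search after the promoters were seen, so these shares are no independent evidence. Matches may overlap, as those on opposite strands do in Ccl1, 196 and 195 bases before the start, and in Cxcl2, 97 and 96 bases before it. The looser form GGGNNNNNCC added Ccl22 and stood in 50.8% of all windows, so it marks no set of genes. TATAAA was found in Ccl8, 32 bases before the start, and in Ccl9 (13.6% of all windows). In Ccl9 the matches lay further off, 224 and 94 bases before the start on the opposite strand and 92 bases before it on the gene's own strand. GAAANNGAAA was found in Cxcl10 alone of the 9, 213 bases before the start (3.44%).

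The spacings bound by STAT proteins, TTCNNNNGAA (6.95% of all windows) and TTCNNNGAA (8.30%), were both found in Ccl17 and in none of the other 8 windows. The AP-1 element TGANTCA stood in Ccl9 and Cxcl10 (7.81%), the GATA letters AGATAA in Ccl17 and Cxcl10 (11.2%) and the NFAT core GGAAAA in Ccl1 and Cxcl2 (23.4%). The window of Ccl6 held none of these letters. No motif was found in more than 3 of the 5 called genes. A match is a run of letters and says nothing on binding.

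Ccl8 (Entrez gene 20307), the monocyte chemoattractant MCP-2, which in mice also signals through Ccr8 on Th2 cells, was the ligand furthest apart. As deposited, on the log10 scale, its ratio was 1.41 for array 1 and -1.254 for array 2, which became log2 ratios of 4.69 and 4.19 once array 2 was turned. Both arrays thus placed it far above the 2-fold line, at 25.9-fold and 18.2-fold. The mean was 4.44 ± 0.25, a 21.7-fold difference, the 4th highest of the 4331 genes. The difference between Ccl8 and the next ligand, Ccl6, was 1.96 on array 1 and 1.27 on array 2, larger than the spread of either.

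Ccl2 (Entrez gene 20296), MCP-1, the main ligand of Ccr2 and the classical attractant of inflammatory monocytes, was not called. It gave -0.90 on array 1 and 0.73 on array 2, so it was below 0 on the first array and above 0 on the second. Its mean of -0.08 ± 0.82 has no direction, and its spread between arrays was larger than that of 93.4% of genes. Ccl8 exceeded Ccl2 by 5.60 on array 1 and by 3.46 on array 2. The pair belongs to the same gene cluster and the same functional group, yet Ccl8 lay above Ccl2 on both arrays by more than either gene's spread.

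Ccl6 (Entrez gene 20305), also called C10, and Ccl9 (Entrez gene 20308), also called MIP-1gamma, are rodent CC ligands made mainly by myeloid cells, and both are known to act through Ccr1. Ccl6 stood at 2.73 on array 1 and 2.92 on array 2, a mean of 2.82 ± 0.09 (7.08-fold) and the 23rd highest of all genes. Ccl9 stood at 1.42 and 1.30, a mean of 1.36 ± 0.06 (2.57-fold). Both were therefore higher on both arrays with little spread: 33.7% and 22.0% of genes had a smaller difference between arrays. Ccl6 exceeded Ccl9 by 1.32 on array 1 and by 1.61 on array 2, more than the spread of either. The 2 genes are near relatives, and probe sequences were not used here, so RNA of 1 may in part have been read by the probe of the other.

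Ccl1 (Entrez gene 20290), also known as TCA-3, is a ligand of Ccr8 that activated T cells and mast cells secrete. It stood at 1.61 on array 1 and 1.36 on array 2, with a mean of 1.49 ± 0.13 (2.81-fold). Both values passed the 2-fold line. Ccl1 exceeded Ccl9 by 0.20 on array 1 and by 0.06 on array 2, the same order on both arrays but by less than the gap between the arrays for Ccl1 itself.

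Cxcl2 (Entrez gene 20310), or MIP-2, attracts neutrophils through Cxcr2 and is made early by macrophages and other cells in inflammation. It stood at 1.38 on array 1 and 1.99 on array 2, giving 1.68 ± 0.31 (3.21-fold), the widest spread of the 5 called ligands. Cxcl2 was below Ccl1 on array 1 by 0.24 (a difference of -0.24) and above it by 0.63 on array 2, so the order of these 2 changed between the arrays. Its closest relative, Cxcl1 (KC), was not called: it gave 1.48 on array 1 and -0.95 on array 2. On array 1 both were high, and on array 2 only Cxcl2 of the 2 was. Cxcl1 and Cxcl2 share much of their sequence, and a probe of 1 may read RNA of the other.

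**Figure D2:**
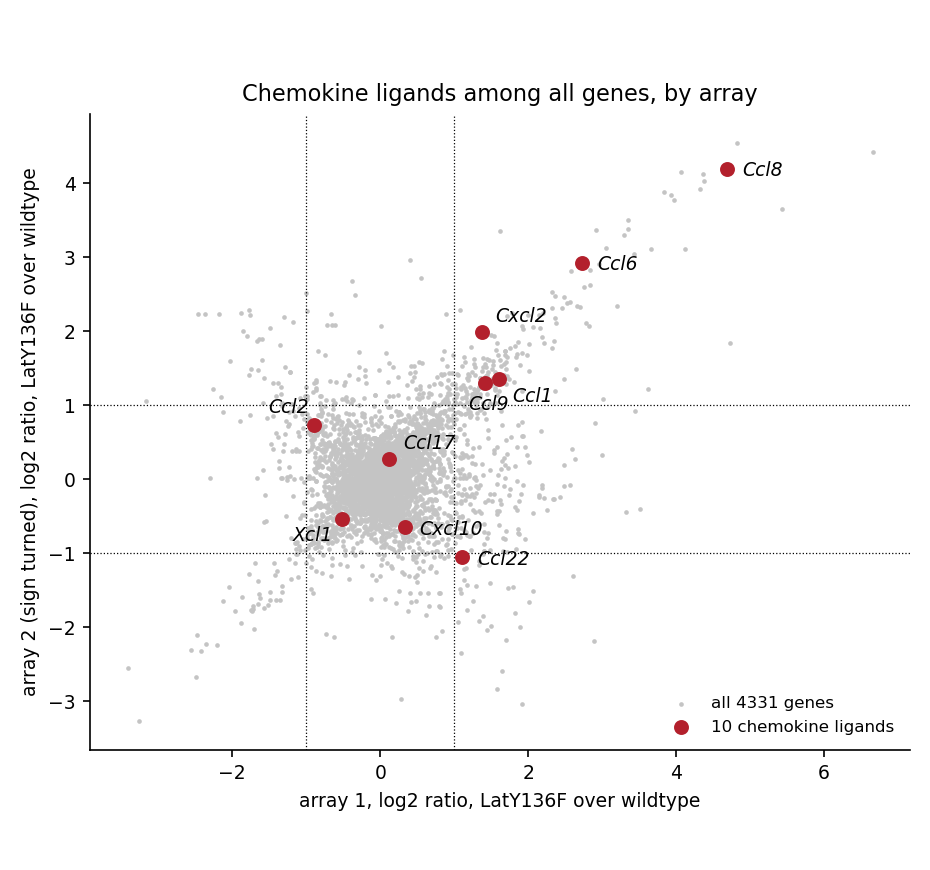
Each gene's log2 ratio of LatY136F over wildtype on array 1 (x axis) and on array 2 after turning its sign (y axis), for all 4331 genes in grey and the 10 ligands in red; dotted lines mark 2-fold. The 5 called ligands lie in the upper right along the line where the arrays give equal values, with Ccl8 at 4.69 and 4.19. Ccl22, at 1.11 and -1.05, lies to the lower right of the centre, just past the 2-fold lines.

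Ccl17 (Entrez gene 20295), or TARC, and Ccl22 (Entrez gene 20299), or MDC, are the ligands of Ccr4, a receptor of Th2, regulatory and skin-homing T cells. Ccl17 was near 0 on both arrays, at 0.12 and 0.27 (mean 0.19 ± 0.07). Ccl22 gave 1.11 on array 1 and -1.05 on array 2, so that each array alone would have put it past 2-fold, in opposite directions. Its mean of 0.03 ± 1.08 carries no direction. Opposite 2-fold differences of this kind were seen for 1.73% of all genes, and a spread as wide as that of Ccl22 for 3.42%. In the deposited log10 columns Ccl22 thus had the same sign on both arrays, 0.3296 and 0.3245, although the dyes were reversed. The Th2 genes Il13 (3.39 ± 0.27) and Gata3 (2.93 ± 0.02), a cytokine and the master transcription factor of the lineage, were called higher beside them. The Th2 cytokine Il4 (0.22 ± 1.19) was not called and had no direction.

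Cxcl10 (Entrez gene 15945), or IP-10, is an interferon-induced ligand of Cxcr3 that draws Th1 and CD8 T cells. It gave 0.33 on array 1 and -0.64 on array 2, with a mean of -0.16 ± 0.49, and was neither called nor given a direction. Of 15 interferon response genes measured, 2 were called lower and none higher (0.970% and 4.20% of all genes), with a median of -0.33. The called genes were the interferon-inducible GTPases Iigp1 (-1.52 ± 0.25) and Tgtp1 (-1.07 ± 0.07). Means of the 15 genes ran from -1.52 to 0.90, with 13 below 0. Of the other interferon-induced CXC ligands, Cxcl9 stood at 0.21 ± 0.37 and Cxcl11 at -0.15, with array values of -0.15 and -0.14, and neither was called.

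Xcl1 (Entrez gene 16963), lymphotactin, is made by activated CD8 T cells and natural killer cells and binds Xcr1 on cross-presenting dendritic cells. It stood at -0.51 on array 1 and -0.53 on array 2. The mean of -0.52 ± 0.005 (1.43-fold lower) was the lowest of the 10 ligands and fell short of 2-fold and of 1.5-fold. Only 2.01% of genes had a smaller difference between arrays. Markers of natural killer and CD8 T cells lay on both sides of 0 (10 measured, median -0.31), with the CD8 chain Cd8b1 at -2.22 ± 0.02 and the protease Gzmb at 3.89 ± 0.05. Their part in the Xcl1 ratio was not tested.

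The other chemokine ligands on the array put these values in the setting of the family. Of 32 further genes (31 chemokines and Mif, a cytokine that binds chemokine receptors), 24 were measured, 1 was called higher and none lower, and the median was -0.03. A count of 1 in 24 is near the 4.20% of all genes called higher. The called gene was Pf4, the platelet factor Cxcl4, at 1.91 on array 1 and 1.19 on array 2 (1.55 ± 0.36). Ccl24, an eosinophil attractant of the eotaxin group, came close, at 1.22 on array 1 and 0.85 on array 2. The other eotaxin measured, Ccl11, stood at -0.37 ± 0.27. The same sign on both arrays was seen for 12 of the 24, near the 55.8% of all genes.

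None of the T cell and inflammatory ligands outside the 10 was called. Ccl3 and Ccl4, the MIP-1 proteins of activated T cells and macrophages, stood at 0.04 ± 0.23 and 0.33 ± 0.26. Ccl5 (RANTES), a product of memory and CD8 T cells, stood at -0.35 ± 0.10. Ccl20, the ligand of Ccr6, gave 0.30 on array 1 and -1.07 on array 2, without a direction. Ligands that organise lymphoid tissue, namely Ccl19, Ccl21b, Cxcl12 and Cxcl13, had means of 0.12 ± 0.12, -0.04 ± 0.23, 0.47 ± 0.70 and -0.48 ± 0.26, and none was called. Ccl25 (-0.05 ± 0.80), Ccl27a (-0.70 ± 0.59) and Ccl28 (0.20 ± 0.40), ligands of gut and skin, were not called, nor were Cxcl14 (-0.02 ± 0.18), Cx3cl1 (0.00 ± 0.06) and Mif (-0.12 ± 0.05).

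Of the 5 called ligands, 4 were neighbours in pairs on chromosome 11. In the first CC cluster of chromosome 11 the RefSeq order is Ccl2, Ccl7, Ccl11, Ccl12, Ccl8 and Ccl1, all 6 measured. The last 2 of this order, Ccl8 and Ccl1, were called higher and the first 4 were not. Between Ccl2 and Ccl8 lie Ccl7, at -0.22 on array 1 and 0.17 on array 2, Ccl11, at -0.64 and -0.10, and Ccl12, at -0.15 and -0.16. Of these neighbours Ccl7 (MCP-3) and Ccl12 (MCP-5) are monocyte attractants like Ccl2 and Ccl8. In the second CC cluster of chromosome 11 the order is Ccl5, Ccl9, Ccl6, Ccl3 and Ccl4, all 5 measured, and the adjoining Ccl9 and Ccl6 were called while those on either side were not. RefSeq places no protein-coding gene between Ccl8 and Ccl1 or between Ccl9 and Ccl6 (0 in each gap).

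On chromosome 5, Cxcl2 and Cxcl10 belong to separate groups of neighbouring CXC genes. In the first, with 5 of 7 genes measured, Cxcl2 lies at 1 end and was called, as was Pf4. Cxcl5 (-0.03 ± 0.03), Cxcl15 (-0.33 ± 0.50) and Cxcl1 were not. In the second, Cxcl9, Cxcl10 and Cxcl11 were all measured and none was called. On chromosome 8 Ccl22, Cx3cl1 and Ccl17 follow each other, and none of these 3 was called. The comparison across clusters is a description, because the 10 ligands were chosen with their values known and neighbouring relatives can share probe signal.

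**Figure D3:**
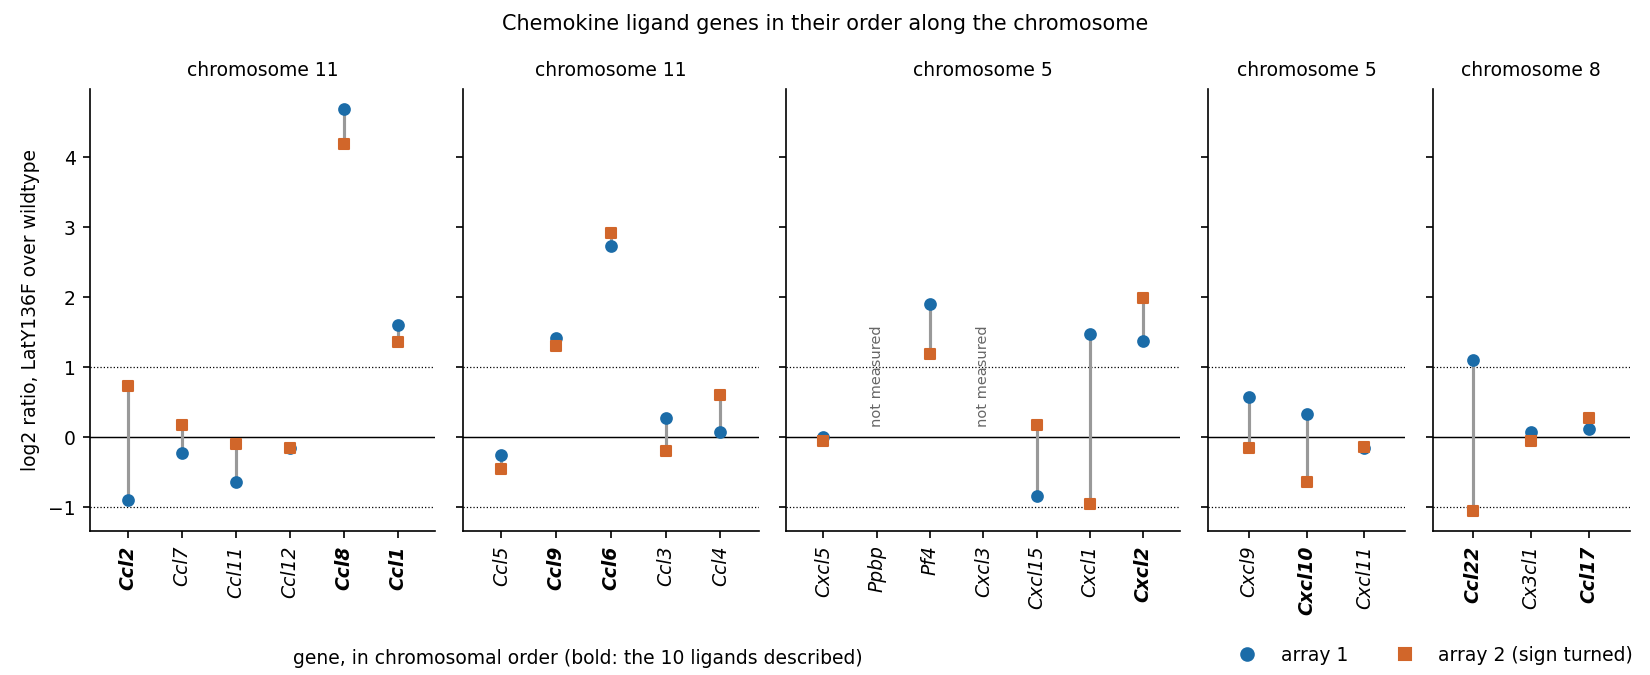
Log2 ratio of LatY136F over wildtype (y axis) for chemokine ligand genes in their RefSeq order along chromosomes 11, 5 and 8 (x axis, not to scale), with array 1 as circles and array 2 after turning its sign as squares; bold names are the 10 ligands. Ccl8 and Ccl1 stand at the end of their cluster with Ccl8 at 4.69 and 4.19, and Ccl9 and Ccl6 stand between Ccl5 and Ccl3, which stay within 2-fold.

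Of 20 chemokine receptor genes measured, 2 were called higher and 1 lower, with a median of -0.02, against 4.20% of all genes called higher and 0.970% lower. Counts this small were not read as a departure from the background. Ccr2, the receptor of Ccl2 on monocytes and some T cells, stood at 3.34 on array 1 and 3.50 on array 2 (3.42 ± 0.08), whereas Ccl2 itself had no direction. Ccr1, the receptor of Ccl6 and Ccl9 on myeloid cells and activated T cells, was called higher with both ligands, at 1.35 and 1.12 (1.23 ± 0.12). Cxcr2, the neutrophil receptor of Cxcl2, gave 0.46 and 1.38 and was not called (0.92 ± 0.46). The receptor called lower was Ccr7, which binds Ccl19 and Ccl21 and guides naive T cells (-1.86 ± 0.16).

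None of the receptors of Ccl1, Ccl17, Ccl22, Cxcl10 and Xcl1 was called. Ccr8, which binds Ccl1 and mouse Ccl8, lay at 0.30 on array 1 and at -0.58 on array 2 and had no direction, beside 2 ligands called higher. Ccr4 gave -0.30 and 0.21, near 0 like Ccl17. Cxcr3, the receptor of Cxcl10, stood at -0.65 and -1.06 (-0.86 ± 0.21), lower on both arrays and past 2-fold on array 2. Xcr1 gave -0.17 and 0.33. Each receptor was paired with its ligand from general knowledge of the family, and several ligands bind more than 1 receptor.

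**Figure D4:**
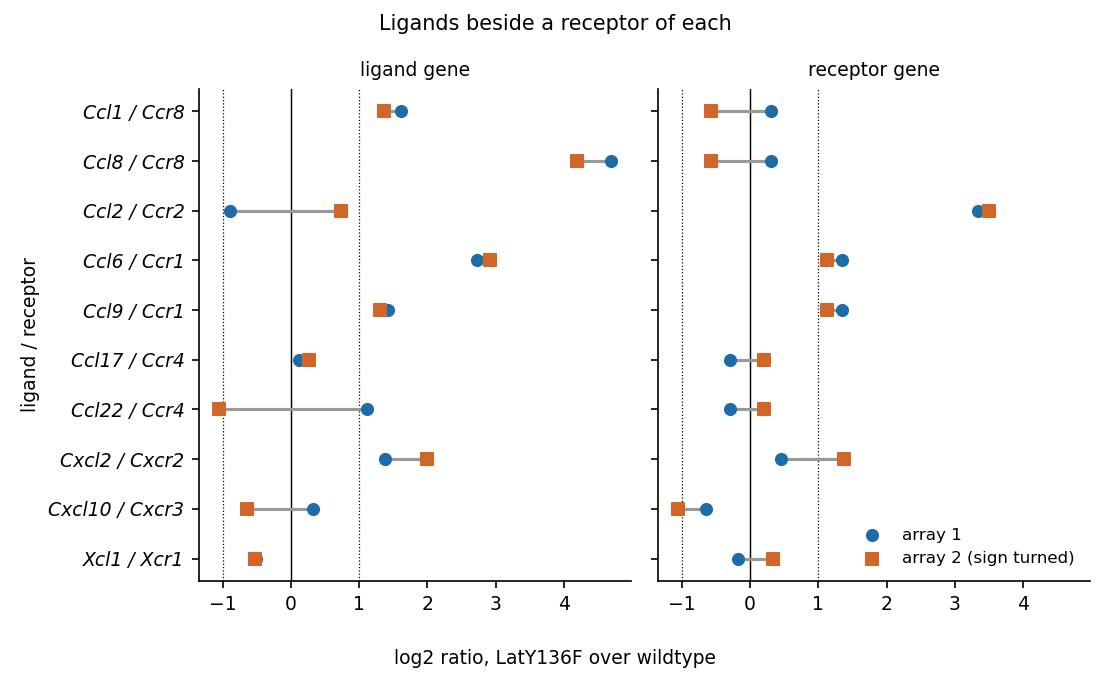
Log2 ratio of LatY136F over wildtype (x axis) for each of the 10 ligands (left panel) and for a receptor of each (right panel), with array 1 as circles and array 2 after turning its sign as squares; rows name ligand and receptor, and a receptor of 2 ligands appears in 2 rows. Ccl6, Ccl9 and Ccr1 lie above 1 on both arrays, Ccr2 lies at 3.34 and 3.50 beside a Ccl2 that spans 0, and Ccr8 spans 0 beside Ccl1 and Ccl8.

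Markers of other blood cell types were compared as well, beside 4.20% of all genes called higher and 0.970% called lower. Of 19 monocyte and macrophage markers measured (of 22 listed), 9 were called higher and none lower, with a median of 1.18 and means from -0.63 to 2.73. The mannose receptor Mrc1 stood at 2.73 ± 0.11 and the complement gene C1qc at 2.48 ± 0.08. Of 7 neutrophil markers 3 were higher (median 1.02), among them Il1r2 (3.62 ± 0.50) and Lcn2 (3.14 ± 0.22). Mpo (0.63 ± 0.21) and Csf3r (0.16 ± 0.21) were among those not called. Dendritic cell markers had a median of -0.26 over 11 genes, 4 with a mean above 0 and 7 below. Of these, 1 was called higher, Cst3 (1.19 ± 0.05), and 1 lower, Ly6d (-1.32 ± 0.07). Among those not called, Itgax stood at 0.74 ± 0.04, Zbtb46 at -0.03 ± 0.04 and H2-Eb1 at -0.70 ± 0.04, so the list had no common direction. Eosinophil, basophil and mast cell markers (5 measured) had none called and a median of 0.75.

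Of the erythroid and platelet markers 4 of 5 were higher (median 1.20), against 4.20% of all genes, with Epor at 2.42 ± 0.06 beside Pf4. Of 13 B cell markers 7 were lower, against 0.970% of all genes, and none higher (median -1.14), with Cd79b at -2.29 ± 0.18. Their means ran from -2.29 to 0.63, with 12 below 0 and 1 above. Among the 6 not called were Cd79a (-0.55 ± 0.18) and Cd24a (0.63 ± 0.13). Ighm stood at -1.91, the average of 2 probes that differed, at -2.85 and -0.98. None of 10 T cell markers was called; they ran from -0.88 to 0.81, with Cd4 at -0.17 ± 0.09. Of 6 stromal and endothelial markers none was called (median 0.03). The table holds ratios and no levels, so neither the amount of these markers in either group nor the identity of the sorted cells could be checked. The part of other cell types in the ratios of Ccl8, Ccl6, Ccl9, Cxcl2 and Ccl1 was not tested.

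**Figure D5:**
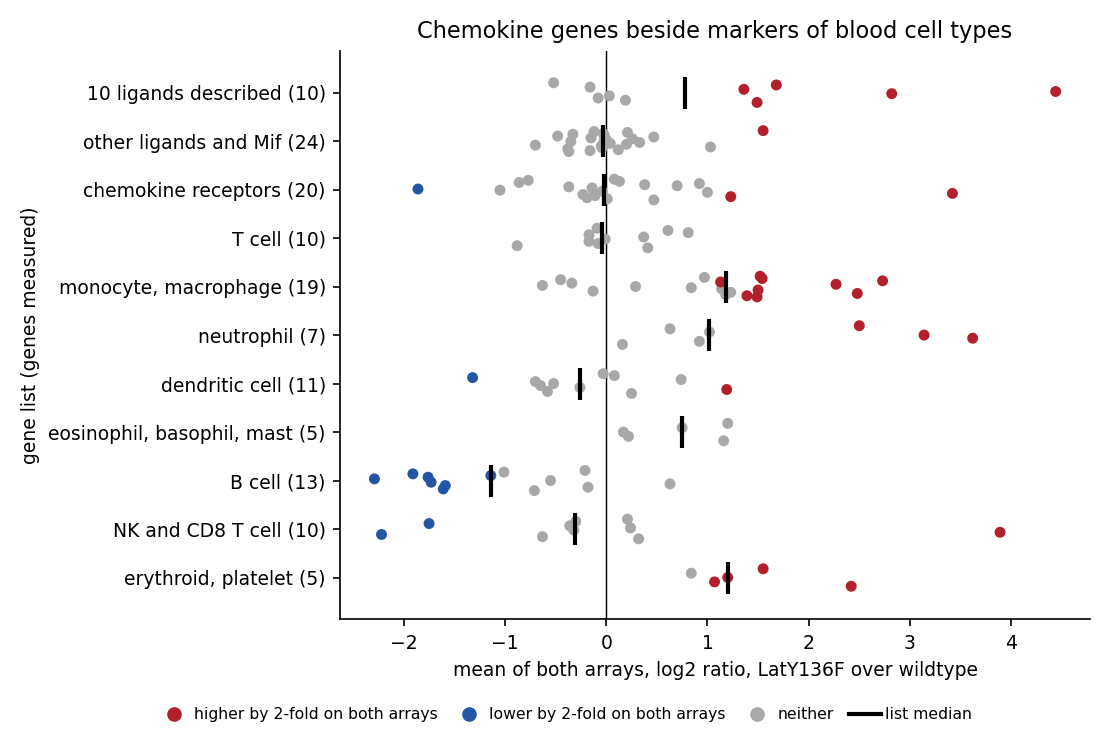
Mean log2 ratio of LatY136F over wildtype (x axis) of every measured gene in each list (rows, with the number measured), red where called higher, blue where called lower and grey otherwise; the black bar is the list's median. The 10 ligands (median 0.78) and the monocyte and macrophage markers (1.18) lie mostly to the right of 0, T cell markers (-0.04) around it and B cell markers (-1.14) to the left.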

How the data were processed

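RNA of wildtype and LatY136F splenic CD4+ T cells was compared on 2 arrays with 2 channels each, a dye-reversed pair. The deposited log10 values are ratios of the channels of each array, 1 for each of 8014 probes. The log10 scale was inferred from a highest value of exactly 2 (array 1), a limit of 100-fold; the sources used here do not give the log base, the direction, the background correction or the normalization. Over all probes the columns as deposited had r = -0.21 (Pearson) and rho = -0.06 (Spearman), and array 2 was multiplied by -1. Values were multiplied by 3.32 for the log2 scale, and the median of each array was subtracted (-0.0033 and 0.0070 as deposited). Of the probes, 4654 had 1 gene symbol in the platform annotation, 73 had several and 3287 had none; averaging probes left 4331 genes. Signals were not analysed here, and precision is limited by the number of arrays.

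The 10 ligands, the gene lists and the rules were chosen with earlier results of these data known. Named genes were these ligands with 1 receptor of each, all other measured ligands, and the called genes furthest from 0 of each further list. Of the latter at most 4 were allowed by the rule, and the first 2 are given. Cd4 was added for its role, and Il4, Mpo, Csf3r, Itgax, Zbtb46, H2-Eb1, Cd79a and Cd24a as genes of their lists that were not called. The alternatives for single genes left these added genes out. The NF-kappaB consensus was added to the motifs after the promoters were seen. Calling was tested on simulated data. Alternatives covered centring, scaling, probe choice, thresholds, single arrays, values of exactly 0, log base and direction. Python 3.11.15, numpy 2.4.6, pandas 2.3.3 and matplotlib 3.10.9 were used.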

Additional observations from a re-analysis of the deposited data

How the results depend on the processing

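The 5 called ligands were the same 5 without centring and with the arrays scaled to equal spread. They were also the same with the strongest probe per gene, without values of exactly 0, at 1.5-fold on both arrays and at 2-fold on the mean. Each ligand has 1 probe and none has a value of exactly 0, so probe choice and zeros could change nothing here. A gene 2-fold apart on both arrays also passes 1.5-fold, 2-fold on the mean and 2-fold on either array. Those settings could only add ligands. At 3-fold on both arrays 2 remained, Ccl6 and Ccl8. Single arrays called 5 to 6 ligands higher and 0 to 1 lower, as Ccl22 was called higher by array 1 and lower by array 2, and gave a median of 1.02 to 1.24. Over all genes the single arrays gave 341 to 408 higher and 145 to 151 lower calls. At 1.5-fold there were 339 higher and 127 lower genes, and at 3-fold 69 higher and 19 lower. Read as log2, the table held 1 called ligand (Ccl8), a median of 0.23, and 13 higher and 0 lower genes, so every fold rests on the log10 reading.

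With the sign of both arrays turned, 0 ligands were higher and 5 lower, the median became -0.78, and 42 genes were higher and 182 lower. The values then became -4.44 for Ccl8, -2.82 for Ccl6, -1.68 for Cxcl2, -1.49 for Ccl1, -1.36 for Ccl9, -1.55 for Pf4, -3.42 for Ccr2, -1.23 for Ccr1, 1.86 for Ccr7, -3.39 for Il13, -2.93 for Gata3, 1.52 for Iigp1, 1.07 for Tgtp1, -2.52 for Ctsg, -1.49 for Ctsc, -2.73 for Mrc1, -2.48 for C1qc, -3.62 for Il1r2, -3.14 for Lcn2, -1.19 for Cst3, 1.32 for Ly6d, 2.29 for Cd79b, 1.91 for Ighm, -3.89 for Gzmb, 2.22 for Cd8b1 and -2.42 for Epor.

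Had array 2 not been turned, 1 ligand (Ccl22) would be called higher, the median would be 0.03, and 34 genes would be higher and 41 lower. Signs then turned for Ccl6 (-0.09), Cxcl2 (-0.31), Ccr2 (-0.08), Ccr7 (0.16), Ctsc (-0.07), Lcn2 (-0.22), Cst3 (-0.05), Ighm (0.03), Cd8b1 (0.02) and Epor (-0.06), since opposite columns then cancel. Apart from these readings of direction, none of 182 alternatives for the 26 named genes that were called reversed a value; a gene called on both arrays cannot reverse on 1 of them, so the count says little. No paired analysis was possible because the arrays measure a single contrast, with no second group to pair. Filters on dim probes were not run, as signals were not analysed here.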

Other observations

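Genes whose products cut or carry chemokines were higher in part. Of 10 measured proteases, inhibitors and proteoglycans of this kind, 3 were called higher and none lower, against 4.20% and 0.970% of all genes. All 10 had a mean above 0, with a median of 0.83, but 3 changed sign between the arrays. The median was 1.35 on array 1 and 0.36 on array 2. Ctsg, cathepsin G, a serine protease of neutrophil granules that trims several chemokines, stood at 2.70 on array 1 and 2.33 on array 2 (2.52 ± 0.19), the average of 3 probes with means of 1.90, 2.63 and 3.02. Ctsc, the protease that activates granule proteases, stood at 1.41 and 1.56 (1.49 ± 0.07). Of 7 neutrophil markers 3 were called higher, and their part in these ratios was not tested.

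Of 32 transducers of chemokine receptor signals listed, 12 were measured and none was called, against 4.20% of all genes called higher and 0.970% lower. Their means ran from -0.15 to 0.55 with a median of 0.35, and 10 were above 0, as were 2168 of all 4331 genes. Of 16 measured NF-kappaB subunits, inhibitors and targets that are not chemokines none was called, and the median was 0.14. At the shares of all genes, lists this short can hold no called gene, so neither count was read as a result about its list. Of 13 Th2 genes 6 were called higher and none lower (4.20% and 0.970% of all genes), with a median of 1.14. This list was used to check the direction of the ratio and is not independent evidence.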
